A study of Mus musculus with 8 samples.

Results

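The genes described here encode the proteins of the cytosolic ribosome. They were taken from the array annotation by name, as Rpl or Rps followed by a number with an optional suffix a, x, l or l1, together with Rplp0, Rplp1, Rplp2 and Rpsa, and no expression value entered the choice. Names of ribosomal S6 kinases and of pseudogenes were left out. The rule found 195 probes for 83 genes, of 39429 probes and 24440 genes carried by both array designs of the series. Of the 83 genes, 45 encode large subunit proteins, 31 encode small subunit proteins and 7 are paralogs whose names end in l or l1 (Rpl3l, Rpl7l1, Rpl10l, Rpl22l1, Rpl39l, Rps27l and Rps4l).

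The cells were sorted by their GFP from the kidney rudiments of mouse embryos at E11.5, pooled from embryos of both sexes of an NMRI stock, with about 100000 cells in a pool. Tbx18, a T-box protein, regulates transcription in mesenchyme next to the forming ureter. The Tbx18 null group (3 arrays) was homozygous for a Tbx18 allele that carries GFP, Tbx18(GFP/GFP). The Tbx18VP16 group (2 arrays) was Tbx18(cre/+);Hprt(CAG:Tbx18VP16-GFP), in which Cre from 1 Tbx18 allele switches on, at the Hprt locus, GFP and a fusion of Tbx18 with the activation domain of VP16. The control group (3 arrays) was heterozygous, Tbx18(GFP/+), so that every group carried an altered Tbx18 allele and no group was wild type. GFP came from the Tbx18 allele in Tbx18 null and control cells and from the Hprt locus in Tbx18VP16 cells. The arrays received 20 ng of RNA, except Tbx18 null 3 and control 3, which received 10 ng.

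A level below is the log2 of a probe's signal over the 75th percentile of its array, so that each unit is a 2-fold step. The Tbx18 probe had a mean level of -2.03 ± 0.60 in Tbx18 null cells, 1.2 ± 0.20 in Tbx18VP16 cells and 0.74 ± 0.66 in control cells (SD, n = 3, 2 and 3), and whether it lies in the replaced part of the gene was not examined. Tbx18 null 1 and 2 and control 1 and 2 lay on one slide, Tbx18 null 3 and control 3 on another, and both Tbx18VP16 arrays on the other design, slide and scan. Genotype and these technical differences cannot be told apart in the Tbx18VP16 comparisons. Markers of other cells were summed for each array. The summed signal of 14 erythroid markers, in multiples of the 75th percentile, was 6.0 to 555.2 in Tbx18 null, 3.48 to 8.70 in Tbx18VP16 and 6.78 to 31.1 in control arrays. That of 10 platelet and megakaryocyte markers was 0.505 to 2.19, 4.79 to 9.29 and 0.355 to 0.377 in the same order of groups, with the Tbx18VP16 arrays above the rest. That of 15 nephron progenitor markers was 71.0 to 75.8, 72.7 to 77.0 and 41.7 to 53.7, with the control arrays below the rest, and that of 13 endothelial markers 4.39 to 18.6, 2.07 to 2.52 and 3.61 to 4.44, with the Tbx18VP16 arrays below the rest. Their part in the results was not tested, and fewer cells of a type and less RNA per cell cannot be told apart in pooled cells.

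The ribosome is built from a large and a small subunit, and each of its proteins is normally present once per particle, apart from the acidic P proteins. The proteins are therefore made in matched amounts, from mRNAs that are among the most abundant of any growing cell. Most of these mRNAs begin with a run of pyrimidines, the 5' terminal oligopyrimidine tract, through which mTOR signalling adjusts their translation. A few ribosomal proteins have a second gene, often with expression restricted to a tissue such as testis or muscle.

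Promoters were found for 62 of the 83 genes in the RefSeq table of build GRCm38.p6. The windows below run from 30 bases before the first listed transcription start to 25 bases after it, in the direction of transcription. Capitals mark the longest run of pyrimidines that starts with C, searched within 15 bases before and 25 bases after the start. In some windows, such as that of Rpl4, further pyrimidines directly precede the capitals and are not marked. Rps12 is shown because its value differed most between Tbx18VP16 and control cells, Rpl4 because it was among the 3 genes that differed the other way, and Rps27 with Rps27l and Rpl22l1 because the paralogs are described below.
Rps12, chr10:23787185-23787239, minus strand: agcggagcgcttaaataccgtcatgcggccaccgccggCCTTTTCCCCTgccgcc
Rpl4, chr9:64173357-64173411, plus strand: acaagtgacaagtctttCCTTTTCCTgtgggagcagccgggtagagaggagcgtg
Rps27, chr3:90213624-90213678, minus strand: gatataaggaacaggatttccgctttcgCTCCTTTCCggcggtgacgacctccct
Rps27l, chr9:66946056-66946110, plus strand: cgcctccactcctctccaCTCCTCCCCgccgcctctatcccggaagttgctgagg
Rpl22l1, chr3:28805478-28805532, plus strand: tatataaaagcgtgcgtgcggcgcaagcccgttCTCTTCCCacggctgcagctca

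A run of at least 8 pyrimidines that starts with C, within 15 bases before and 25 bases after the start, stood in 26 of the 62 promoters (41.9%), against 11.8% of 27025 promoters of all genes. CCGGAAG, the core of the site for ETS-family factors such as GABPA, was found on either strand in 24 of 62 (38.7%) within 250 bases before and 50 bases after the start, against 9.12% of all promoters. AGGTGTGA, the half-site of T-box factors, was in 0 of the 62 and in 1.27% of all promoters. The E-box CACGTG was in 8.07% and 7.24%, and TATAAA in 9.68% and 14.2%. These counts describe letters in a window and were not used in any test.

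Of the 195 probes, 190 were well above background on all 8 arrays and 5 on none. The 80 genes with a bright probe were tested, each by its probe of highest mean level. The other 3, Rpl3l, Rpl10l and Rpl39l, which are the paralogs known for expression in striated muscle or in testis, were not well above background on any array of any group. Among the tested genes 76 had mean levels of 5 or more, up to 7.78 for Rpl41. The remaining 4 were Rps27l, Rps21, Rps4l and Rpl7l1, with mean levels of 4.64, 4.15, 3.20 and -0.37. Signal also depends on how well a probe binds, so these levels give no order of transcript amounts.

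The median level of the 80 genes was 7.40, 7.07 and 6.96 on the Tbx18 null arrays, 6.53 and 6.67 on the Tbx18VP16 arrays, and 7.29, 6.90 and 6.96 on the control arrays. The number 1 arrays of Tbx18 null and control were both the highest of their group, and the Tbx18VP16 arrays lay below all others. All member probes together held 12.27 ± 0.30% of the signal of the shared probes in Tbx18 null cells, 10.96 ± 0.11% in Tbx18VP16 cells and 12.06 ± 0.26% in control cells (SD, n = 3, 2 and 3). An exact two-sided permutation test over arrays gave p = 0.4 for Tbx18 null against control and p = 0.2 for Tbx18VP16 against either group. Both Tbx18VP16 arrays held a smaller share than each of the other 6. The smallest p that this test allows is 0.1 for 3 arrays against 3 and 0.2 for 2 against 3.

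**Figure D1:**
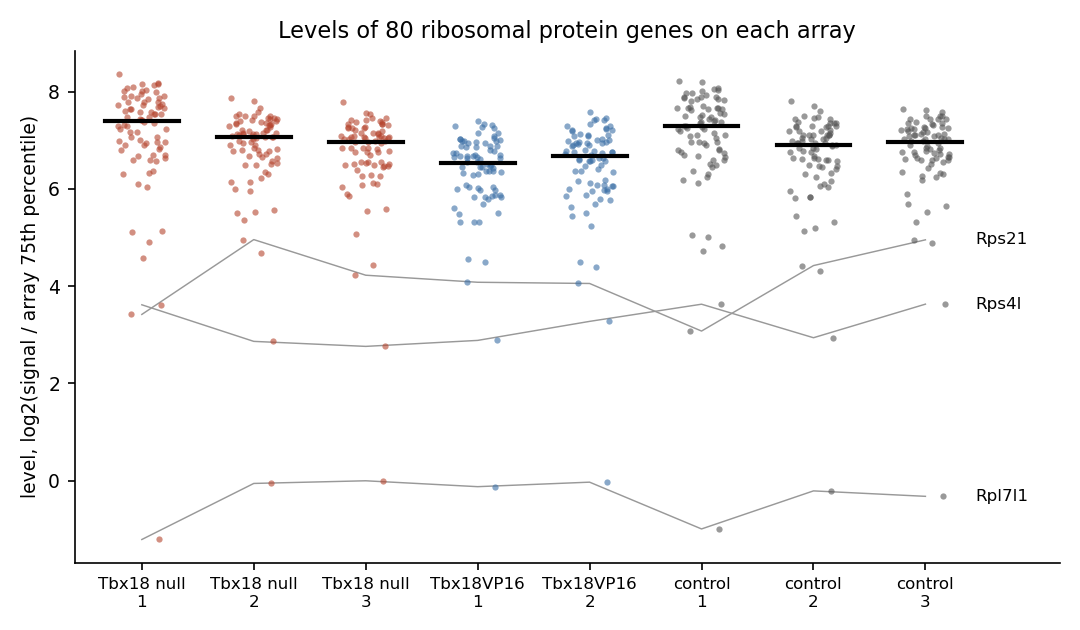
Levels (log2 of signal over the 75th percentile of the array) of the 80 tested ribosomal protein genes on each of the 8 arrays, with 1 point per gene and a black bar at the median. The medians were 6.96 to 7.40 on Tbx18 null, 6.53 and 6.67 on Tbx18VP16 and 6.90 to 7.29 on control arrays, and grey lines follow Rps21, Rps4l and Rpl7l1.

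Ribosomal protein genes differed little between Tbx18 null and control cells. No ribosomal protein gene passed an adjusted p of 0.05 between Tbx18 null and control cells (limma, Benjamini-Hochberg over all genes tested), where 0.0% of 19592 genes passed. At an unadjusted p under 0.05 the count was 0 of the 80 genes, against 944 of all genes (4.82%). The changes ran between -0.32 and 0.23 on the log2 scale, and 69 of 80 were above 0, against 51.3% of all genes. The median was 0.05 for the 80 genes and 0.01 for all genes. Median centring, which moves all genes of an array alike, gave -0.015 for the 80 genes and -0.06 for all genes, the same difference of 0.05. Quantile normalization gave -0.00393 and -0.01, and the authors' deposited values -0.00288 and -0.01. Other genes with strong signals had a like median in the main scaling. Among genes with a mean level of 6 or more, the median was 0.05 for 73 ribosomal protein genes and 0.07 for 465 other genes. The 95% interval of the change lay within 2-fold in either direction for 75 of the 80 genes and for 56.4% of all genes, and within 1.5-fold for 15 genes and 3.87% of all genes.

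The same-numbered arrays of Tbx18 null and control cells deviated together from their group means. Within these pairs the median difference of the 80 genes, null minus control, was 0.09, 0.16 and -0.04, with 67, 78 and 30 of 80 genes above 0. The third pair therefore went the other way from the first and second. On the first slide alone, which held the number 1 and 2 arrays, the median change was 0.12. It was -0.069 without Tbx18 null 1 and -0.036 without control 2. When the replicate number entered the fit as a block, 0 of the 80 ribosomal protein genes passed an adjusted p of 0.05 in limma, against 194 of all genes (0.99%).

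Single genes gave the same picture. Rps29, a small subunit protein whose human gene is mutated in some cases of Diamond-Blackfan anaemia, had levels of 6.95, 7.43 and 7.06 in Tbx18 null cells, against 6.73, 7.35 and 6.66 in control cells. Its change of 0.23 ± 0.28 (SE) was the highest of the 80, and the groups overlapped (limma adjusted p = 1). All 3 of its probes are placed on chromosome 2, whereas the gene lies on chromosome 12, and gave 0.21 to 0.23. Rps4l, a mouse autosomal relative of the X-linked Rps4x, had levels of 3.62, 2.86 and 2.76 in Tbx18 null cells, against 3.63, 2.94 and 3.63 in control cells. Its change of -0.32 ± 0.33 (SE) was the lowest, and the number 3 pair held nearly all of the difference.

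Rpl38, a large subunit protein known from a mouse mutant with skeletal patterning defects, had levels of 7.54, 7.22 and 7.06 in Tbx18 null cells and 7.40, 7.10 and 6.79 in control cells. All 3 pairs were higher in Tbx18 null cells, and its change was 0.17 ± 0.27 (SE, limma adjusted p = 1). Rps15 and Rps19 of the small subunit and Rpl4 of the large subunit had changes of 0.17, 0.16 and 0.16. On the other side, Rpl7a, Rpl39, Rps27l and Rps10 had changes of -0.09, -0.07, -0.06 and -0.04. The Tbx18 null arrays lay above all control arrays in 0 of the 80 genes (4.19% of all genes) and below them in 0 (3.57%). These counts and the SEs leave out that same-numbered arrays deviated together. Overlap of the groups therefore does not show that the arrays of a pair were alike. With the replicate block the smallest limma adjusted p of the 80 genes was 0.53.

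Rps21, a small subunit protein, varied most among replicates, with levels of 3.42, 4.96 and 4.22 in Tbx18 null cells and 3.08, 4.42 and 4.95 in control cells. The number 1 array was the lowest of each group, whereas the median of the 80 genes was highest there. Rpl5 followed the same order on the number 1 arrays, with 4.58, 5.52 and 5.55 in Tbx18 null cells and 4.72, 5.20 and 5.52 in control cells. Rps21 and Rpl5 had 1 probe each, so a trait of the probe and of the gene cannot be told apart. The median SD among replicates was 0.29 for the 80 genes in Tbx18 null and 0.29 in control cells, against 0.41 and 0.39 for all genes.

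**Figure D2:**
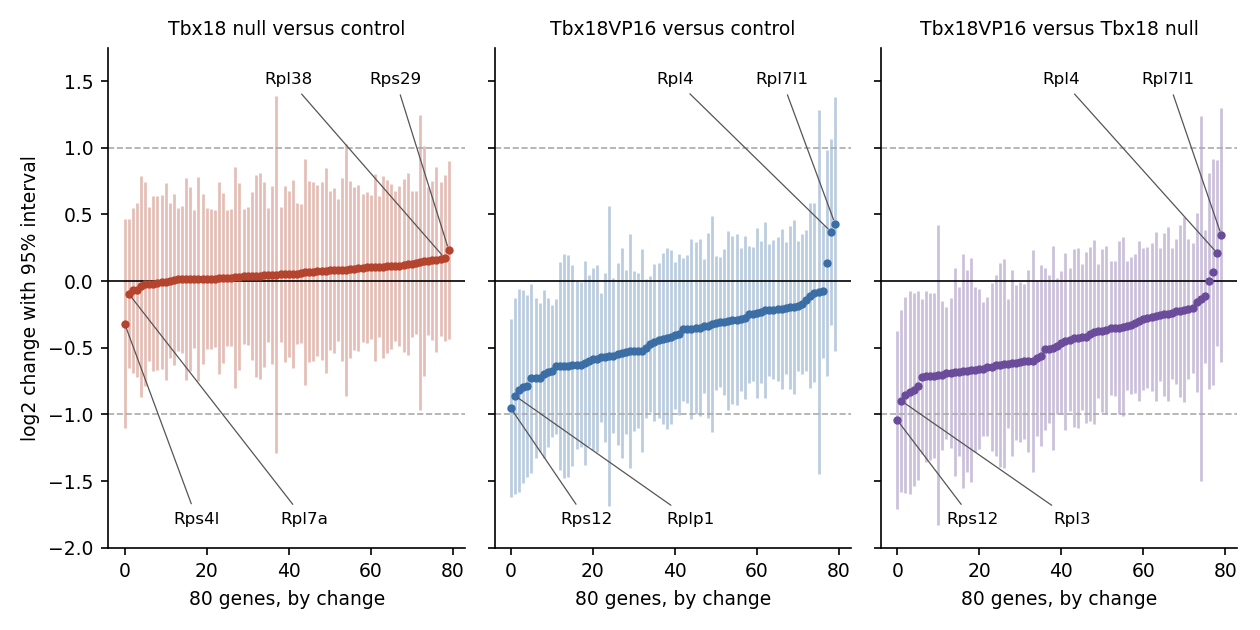
Log2 change of each of the 80 genes (points, in rising order in each panel) with its 95% interval (lines), and dashed lines at a 2-fold change. For Tbx18 null versus control all points lie between -0.32 and 0.23, while in both Tbx18VP16 comparisons 77 of 80 lie below 0.

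With Tbx18VP16, ribosomal protein genes had mostly lower levels than in control cells under this scaling, but none passed the test. An adjusted p of 0.05 was reached by 0 of the 80 genes, against 5.33% of 20471 genes (limma), of which 2.04% were higher and 3.29% lower. The change was below 0 for 77 of the 80 genes, against 59.2% of all genes, with a median of -0.41 against -0.14. For 57 genes both Tbx18VP16 arrays lay below all 3 control arrays, as for 30.3% of all genes, and for 1 gene, Rpl7l1, above them (17.4%). The 95% interval of the change lay within 2-fold for 32 of the 80 genes and 30.9% of all genes. At an unadjusted p under 0.05 there were 15 genes, all lower, which is 15 of 80 against 22.8% of all genes in either direction and 15.9% lower. Without control 1 that count was 4, and without control 3 it was 9, against 18.4% and 22.3% of all genes at the same unadjusted p. Without Tbx18VP16 1 it was 1 and without Tbx18VP16 2 it was 0, against 11.7% and 10.8% of all genes, and in these fits the lone Tbx18VP16 array was assumed to vary like the arrays of the other groups. At the adjusted p, the share of all genes was 0.256% without Tbx18VP16 1, 0.197% without Tbx18VP16 2, 1.45% without control 2 and 9.52% without Tbx18 null 1.

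The size and sign of the median rested on how the arrays were put on a common scale. The median change of the 80 genes was -0.21 after median centring, -0.059 after quantile normalization, -0.062 in the authors' deposited values, -0.019 after normexp correction with quantile normalization, and 0.051 with a 75th percentile over all spots. In that last setting the spots of probes found on the Tbx18VP16 design alone count too. There 35 of the 80 genes were lower, against 31.2% of all genes, and the median of all genes was 0.32. Median centring and the percentile over all spots move all genes of an array alike, so the median of the 80 genes stayed 0.27 below that of all genes in both, as in the main scaling. The difference between these medians was -0.04 after quantile normalization, -0.04 in the authors' values and -0.00147 after normexp with quantile normalization. After quantile normalization 46 of 80 genes were lower, and in the authors' values 47, against 51.2% of all genes in both. Other genes with strong signals had changes of like size in the main scaling. Among genes with a mean level of 6 or more, the median change was -0.43 for 71 ribosomal protein genes and -0.38 for 433 other genes.

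**Figure D3:**
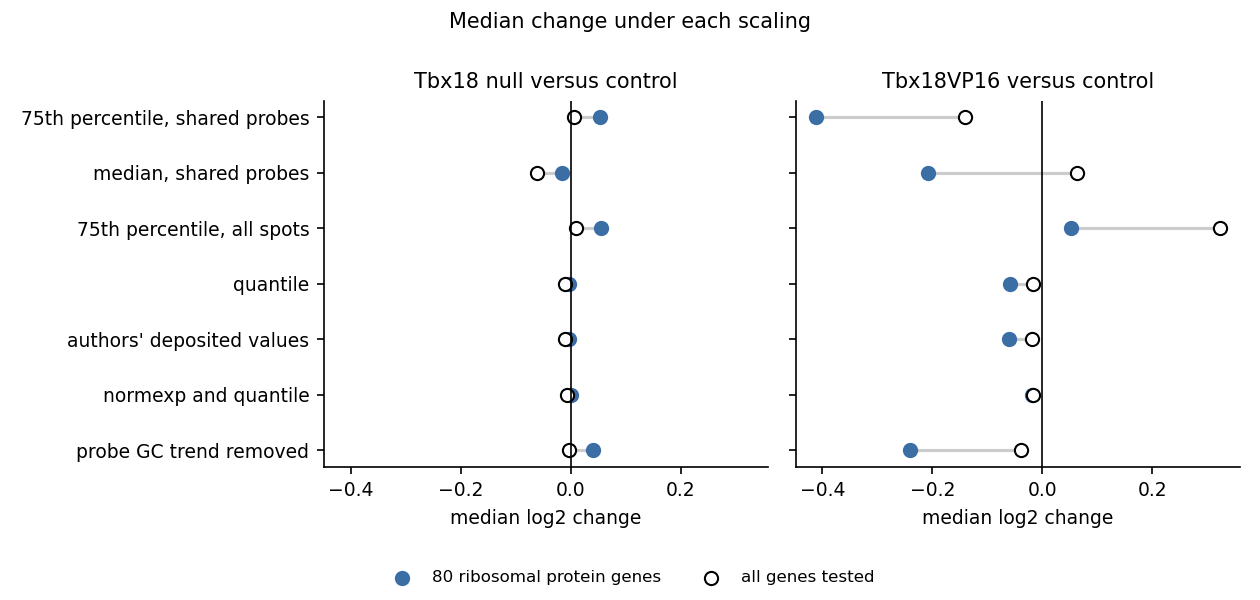
Median log2 change of the 80 ribosomal protein genes (filled points) and of all genes tested (open points) under 7 ways of scaling the arrays. For Tbx18VP16 versus control the filled points run from -0.41 to 0.05, and for Tbx18 null versus control from -0.02 to 0.05.

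Rps12, a small subunit protein, had levels of 6.44 and 6.19 in Tbx18VP16 cells, 7.68, 7.31 and 7.08 in Tbx18 null cells and 7.65, 7.10 and 7.05 in control cells. Both Tbx18VP16 arrays lay below the other 6. Its change against control was -0.95 ± 0.29 (SE, 95% interval -1.62 to -0.29), with a limma adjusted p of 0.103, and it stayed below 0 in every scaling tried, at -0.95 with the 75th percentile over all probes of the design, -0.49 to -0.75 after the other scalings, -0.75 with the probe GC trend removed and -0.66 over the mean of its probes. The second Rps12 probe gave -0.36.

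Rplp1, one of the acidic proteins of the stalk that recruits translation factors, had levels of 6.02 and 6.12 in Tbx18VP16 cells and 7.28, 6.68 and 6.84 in control cells. The groups did not overlap, and the change was -0.86 ± 0.32 (SE, limma adjusted p = 0.162). Rplp0, the base of the stalk, changed by -0.09 ± 0.29 and Rplp2, its other acidic protein, by -0.35 ± 0.28 (SE), and neither passed the test. The arrays of Rplp0 overlapped with those of control. These values hold for the probes used. Over all their bright probes the changes ran from -0.42 to 0.19 for Rplp0 and from -0.86 to 0.19 for Rplp1.

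Rpl3, which lies near the catalytic centre of the large subunit, had levels of 5.84 and 6.06 in Tbx18VP16 cells and 7.10, 6.47 and 6.64 in control cells, a change of -0.79 ± 0.30 (SE). Rps4x, a small subunit protein encoded on the X chromosome, had 5.31 and 5.51 in Tbx18VP16 cells and 6.67, 5.83 and 6.18 in control cells, a change of -0.82 ± 0.33 (SE). Rps9, also of the small subunit, had 6.77 and 6.96 in Tbx18VP16 cells and 8.04, 7.44 and 7.50 in control cells. In all 3 genes the groups did not overlap, and the limma adjusted p was 0.166, 0.191 and 0.188. The second probes of Rpl3 and Rps4x gave smaller changes, of -0.25 and -0.28. Both designs place the Rps4x probe used here on chromosome 3, and the second design places the other on X. The second Rpl3 probe is placed on chromosome 5, whereas the gene lies on chromosome 15.

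Only 3 of the 80 genes had a change above 0, and their intervals all included 0. Rpl4, of the large subunit, had levels of 5.50 and 5.78 in Tbx18VP16 cells, 5.13, 5.56 and 5.58 in Tbx18 null cells and 4.82, 5.32 and 5.65 in control cells, a change against control of 0.37 ± 0.30 (SE). Rpl5, which carries 5S rRNA into the large subunit together with Rpl11, had 5.32 and 5.24 in Tbx18VP16 cells and a change of 0.14 ± 0.37 (SE). Both genes had 1 probe each and a low control 1 array. Rpl11 itself had a change of -0.33 ± 0.30 (SE), with overlapping arrays. Rpl7l1 had the third, 0.43 ± 0.41 (SE).

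At the other end of the lower values, Rpl23 of the large subunit had levels of 6.69 and 6.95 in Tbx18VP16 cells, 7.0, 6.96 and 6.84 in Tbx18 null cells and 6.96, 6.75 and 6.98 in control cells. Its change against control was -0.08 ± 0.22 (SE), and Rps21 had -0.08 ± 0.59, the widest error of the 80 genes. Rpl41, which encodes the shortest of the ribosomal proteins, had 7.28 and 7.29 in Tbx18VP16 cells, 8.36, 7.86 and 7.79 in Tbx18 null cells and 8.21, 7.80 and 7.63 in control cells. Its Tbx18VP16 arrays lay below all others, with a change against control of -0.60 ± 0.28 (SE, limma adjusted p = 0.248).

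By subunit, 43 of 45 large subunit genes and 31 of 31 small subunit genes had a change below 0, with medians of -0.36 and -0.50. The difference between subunits was not tested. The 16 genes mutated in human Diamond-Blackfan anaemia, a failure of red cell production, had 15 values below 0, with a median of -0.42. The 4 X-linked genes Rpl10, Rpl36a, Rpl39 and Rps4x were all lower, with a median of -0.57. Both Tbx18VP16 arrays lay below all control arrays in each of them, as in 57 of the 80 genes and 30.3% of all genes. This holds for the probes used, and the Rps4x probe used is the one placed on chromosome 3. Over all their probes the changes ran from -0.42 to -0.08 for Rpl10 and -0.41 to 0.04 for Rpl36a. They ran from -1.01 to -0.13 for Rpl39 and -0.82 to -0.28 for Rps4x. In the large subunit, small subunit, anaemia and X-linked groups 0 genes passed the adjusted p, against 5.33% of all genes. In Tbx18 null cells the medians of these groups were 0.05, 0.06, 0.03 and -0.00174.

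Against Tbx18 null cells, Tbx18VP16 cells gave a like set of values; this comparison and the one with control share the Tbx18VP16 arrays. No member passed the test (0 of 80 against 3.68% of all genes, 1.18% higher and 2.5% lower), 77 of 80 had changes below 0 against 60.0% of all genes, and the median was -0.47 against -0.15. In 64 genes both Tbx18VP16 arrays lay below all Tbx18 null arrays, as in 32.0% of all genes. Rps12 had a change of -1.04 ± 0.29 (SE, limma adjusted p = 0.0892), Rpl3 -0.90 ± 0.30 and Rplp1 -0.86 ± 0.32. The second probes of these genes gave -0.38, -0.40 and 0.15 in the same order. An unadjusted p under 0.05 was reached by 23 genes, all lower, against 22.0% of all genes in either direction and 16.1% lower. It was reached by 8 genes without Tbx18 null 1 and 12 without Tbx18 null 2, against 20.0% and 18.8% of all genes. Leaving out either Tbx18VP16 array, with the spread then taken from the other groups, left 1 gene, against 11% and 10.1% of all genes. The median was -0.20 after median centring, -0.056 after quantile normalization and -0.013 with the 75th percentile over all spots, with medians of all genes of 0.12, -0.01 and 0.31.

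Several genes had more than 1 probe, which allowed a check within the gene. The first 30 of the 60 bases of the probes of Rplp1 and Rps12 are shown, because probes of the same mRNA gave different changes in Tbx18VP16 cells. Positions are those of the array annotation on mm9.
Rplp1 first probe, chr9:61761259-61761318, minus strand: atgtcaacattgggatcctcatctgcaatg
Rplp1 second probe, chr9:61761086-61761145, minus strand: ggtctttttgactaaactgcttttgttaag
Rps12 first probe, chr10:23505428-23505711, minus strand: aaaggctgatgacaacaagaaactagggga
Rps12 second probe, chr10:23504999-23505058, minus strand: gccaaggatgtcatcgaggaatacttcaag

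The first Rplp1 probe, used above, had a GC content of 55% and a change of -0.86 between Tbx18VP16 and control cells. The second had a GC content of 35%, levels of 6.74 and 6.94 in Tbx18VP16 cells and 6.63, 6.52 and 6.80 in control cells, and a change of 0.19 ± 0.25 (SE). The pair thus gave opposite signs for Tbx18VP16, while between Tbx18 null and control cells they gave -0.00376 and 0.03. The files of the first array design place the second probe on chromosome X and those of the other design on chromosome 9, where the gene lies.

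Rpl13, a large subunit protein, had 3 probes with changes of -1.14, -0.58 and 0.19 against control in Tbx18VP16 cells, and of 0.02, 0.03 and 0.03 in Tbx18 null cells. The probe with -1.14 is placed on chromosome 4 by the annotation, whereas the gene lies on chromosome 8. Rps2, the small subunit protein near the mRNA entry site, had probes with -0.11 and -1.08. The annotation places the probe with -1.08 at a distant site of the same chromosome. Rps15a had probes from -0.73 to 0.63, with mean levels that ran from -2.61 to 6.59. Rpl21 had 6 probes, of which 5 lay between -0.42 and -0.21 and the sixth, with a mean level of -2.38, at 0.62.

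Over the 61 genes with at least 2 probes well above background, the changes of a gene's probes spanned under 0.5 in 61 of 61 genes for Tbx18 null versus control, against 91.0% of 4007 genes of any kind with several such probes. For Tbx18VP16 versus control this held for 38 of 61 genes, against 58.5%. The median span was 0.05 for Tbx18 null and 0.39 for Tbx18VP16. Ribosomal protein genes have many processed pseudogenes, and 28 of the 195 probes were placed on another chromosome than their gene by the files of the first design and 13 by those of the second. Signal from a gene and from such copies cannot be told apart.

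**Figure D4:**
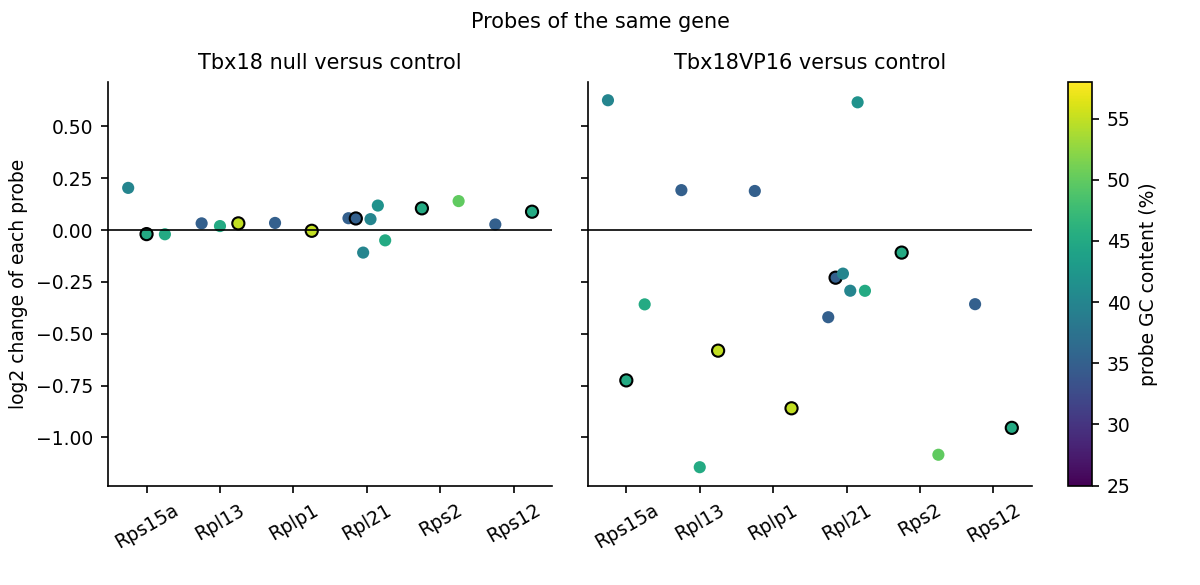
Log2 change of every probe well above background for the 5 genes whose probes differed most, and for Rps12, coloured by the GC content of the probe, with a black rim on the probe used for the gene. For Tbx18 null versus control the probes of a gene lie close together, and for Tbx18VP16 versus control they spread from -1.14 to 0.63.

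The change in Tbx18VP16 cells also moved with the base composition of the probe. Over 190 member probes the correlation of GC content with the change against control was -0.47 (Pearson) and -0.49 (Spearman), as a description of probes that share the same arrays. The median change was -0.30 for 41 probes with up to 35% GC, -0.21 for 27 probes above that and up to 40%, -0.40 for 79 probes up to 45%, and -0.63 for 43 probes with more. Over all 21875 bright probes the same bands had medians of 0.23, 0.07, -0.20 and -0.42. For Tbx18 null versus control the Spearman coefficient was 0.07 over the member probes, and the band medians were 0.03 to 0.10. With the GC trend of all probes removed, the median change of the 80 genes against control was -0.24, with 67 of 80 lower and 0 past the threshold. For all genes the median was then -0.04, with 53% lower and 6.72% past the threshold.

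**Figure D5:**
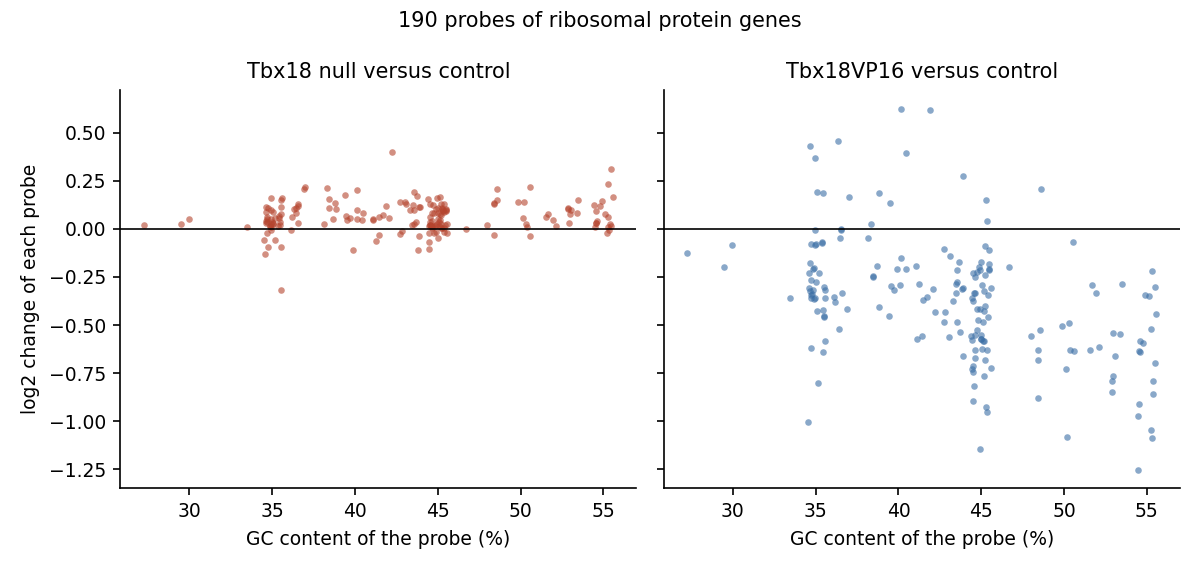
Log2 change of each of the 190 member probes against its GC content in percent, with points spread slightly sideways. The Tbx18 null panel is flat around its median of 0.05, and in the Tbx18VP16 panel the median is -0.30 up to 35% GC and -0.63 above 45%.

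The paralogs were compared with the gene each resembles. Rpl22l1, a paralog of Rpl22 that can replace it in the ribosome, had levels of 4.57 and 4.49 in Tbx18VP16 cells, 5.12, 5.37 and 5.07 in Tbx18 null cells and 5.05, 5.14 and 5.32 in control cells. Both Tbx18VP16 arrays lay below the other 6, with a change against control of -0.64 ± 0.22 (SE, limma adjusted p = 0.137), while Rpl22 had -0.36 ± 0.23, with 0.40 for its second probe. Rps27l, a known p53 target, had a change of -0.29 ± 0.28 and Rps27 one of -0.25 ± 0.22 (SE), by a probe placed on chromosome 9 and not on 3, where the gene lies. Rps4l had -0.32 ± 0.35 and Rps4x -0.82 ± 0.33 (SE), and Rpl7l1 had 0.43 ± 0.41 while Rpl7 had -0.20 ± 0.22 (SE). For the pairs whose paralog was not above background, the other gene had -0.79 (Rpl3), -0.42 (Rpl10) and -0.73 (Rpl39). None of these passed the test, and differences within a pair were not tested.

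Between Tbx18 null and control cells the same paralogs changed by 0.02 ± 0.22 for Rpl22l1, 0.09 ± 0.40 for Rpl7l1 and -0.06 ± 0.28 for Rps27l (SE). Of 16 tested p53 targets, Rps27l among them, 12 had values above 0 and 4 below in Tbx18VP16 cells against control. Of all genes 40.8% were above 0. At the adjusted p of 0.05, 4 of the 16 were higher and 0 lower, as were 2.04% and 3.29% of all genes. Other scalings and leaving out arrays were not tried for this list. Phlda3, a repressor of AKT, changed by 1.47 ± 0.22, the cyclin Ccng1 by 1.32 ± 0.23 and Cdkn1a, an inhibitor of cyclin-dependent kinases, by 3.42 ± 0.70 (SE, limma adjusted p = 0.0125, 0.0179 and 0.0339), with Zmat3 as the other.

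Genes that act with the ribosomal proteins were set beside them. Over all genes the medians against control were 0.01 in Tbx18 null and -0.14 in Tbx18VP16 cells, and 0.0% and 5.33% were called. The 78 mitochondrial ribosomal protein genes, which serve the separate ribosome of the organelle, had medians of 0.03 in Tbx18 null and -0.23 in Tbx18VP16 cells against control, with 0 called in either. Mrpl17 had the smallest p among them for Tbx18VP16, at -0.76 ± 0.24 (SE, limma adjusted p = 0.12). The 18 other mRNAs with a 5' oligopyrimidine tract, which encode translation factors and the like, had medians of 0.09 in Tbx18 null and -0.13 in Tbx18VP16 cells, again with 0 called. Among them Tpt1 had -0.29 ± 0.23 and Hnrnpa1 0.29 ± 0.22 (SE) in Tbx18VP16 cells.

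The 28 ribosome biogenesis genes, which make and assemble the subunits in the nucleolus, had 26 values above 0 in Tbx18 null against control cells, against 51.3% of all genes. Their median was 0.27, against 0.01 for all genes, and 0 passed the test, as did 0.0% of all genes. Other scalings and leaving out arrays were not tried for this list. Rrp9, which binds U3 RNA in the processing of pre-rRNA, had 0.46 ± 0.22, Bop1 0.41 ± 0.27 and nucleolin (Ncl) 0.32 ± 0.25 (SE, limma adjusted p = 1). Myc, a known activator of this programme, had 1.25 ± 0.69 and Mycn 0.59 ± 0.29 (SE, limma adjusted p = 1). They belong to a list of 9 RNA polymerase I and MYC regulators, with 7 values above and 2 below 0. A link between the lists was not tested. In Tbx18VP16 cells the same 28 genes had 14 values above and 14 below 0 against control, with a median of 0.00209. Of them 0 were called, against 5.33% of all genes. Against control, Nop10, a part of the pseudouridylation complex, had -0.86 ± 0.24, and Tsr1, a factor of small subunit maturation, 0.63 ± 0.21 (SE, limma adjusted p = 0.0869 and 0.132). Between Tbx18VP16 and Tbx18 null cells 21 of the 28 were lower, against 60.0% of all genes, with a median of -0.21.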

How the data were processed

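Single-channel Agilent arrays were hybridised with labelled RNA from 8 pools of sorted cells. Per the file headers, intensities were extracted with Agilent Feature Extraction 10.7.3.1, background-subtracted and detrended by the authors within each array, with no scaling between arrays. The authors also deposited a value table of intensity that holds the same sorted values in all 8 columns, so it was quantile-normalized, with a lowest value of 10 and a 75th percentile of 1500. Its log2 was used as an alternative. Here the processed signals of a probe's spots (4 or more per array) were averaged without flagged outliers, taken as log2 and reduced by the array's 75th percentile over the 39429 probes on both designs. Each gene took the values of its member probe with the highest mean over all arrays. Genes were tested when that probe was well above background on 3 of 6 arrays (Tbx18 null versus control) or 2 of 8 (the fit of all groups), with lmFit and eBayes of limma 3.58.1 in R 4.3.3 and Benjamini-Hochberg adjustment over all genes tested. The fits were tested on simulated data. The number of arrays limits the precision.

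Nothing states that pools came from separate litters, so p-values measure only the spread between these pools. Same-numbered Tbx18 null and control arrays deviated together from their group means (r = 0.79, 0.68 and 0.40 over all genes, with -0.72 to 0.29 for different numbers), and shared slides, so the block is given beside that comparison. For Tbx18VP16 the values with same-numbered control arrays were 0.02 and -0.25. The deviations of 2 arrays from their mean mirror each other, so this check cannot settle whether Tbx18VP16 numbers pair with the others. The members, the gene lists and the rule for the genes named (largest changes in each comparison, largest differences between probes, stalk and 5S genes, paralog pairs, and the smallest p in other lists) were chosen with earlier results of these data known. RefSeq tables of GRCm38.p6 gave current names and promoters. Alternatives were other scalings and background correction, filters, probe summaries, variance trend, blocks and leaving out each array. The 75th percentile over all spots and the removal of the probe GC trend were added after the data were seen.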

Additional observations from a re-analysis of the deposited data

How the results depend on the processing

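In every alternative without a replicate block, 0 of the ribosomal protein genes passed the adjusted p in any of the 3 comparisons. The share of all genes that passed ran from 0% to 9.52% over these alternatives, so in some of them few or no genes of any kind passed. The replicate block called 1 gene, Rps12, in Tbx18VP16 against control (-1.08, limma adjusted p = 0.019) and against Tbx18 null (-1.17, 0.0175), where 17.7% and 16.0% of all genes were called. Nothing states that the replicate numbers of Tbx18VP16 pair its arrays with the others, which lay on other slides, so this block has no stated basis. Across the alternatives without a block the adjusted p of Rps12 against control lay above 0.05. For Tbx18 null against control the block changed no call among the ribosomal protein genes, also with the probe GC trend removed (median 0.04). Each slide held as many Tbx18 null as control arrays, so the slide as a block cannot move a fitted change, and it called 0 ribosomal protein genes and 0.0306% of all genes.

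For Tbx18 null against control the median change turned to -0.015 after median centring, -0.00393 after quantile normalization and -0.00288 in the authors' deposited values, where the medians of all genes were -0.06, -0.01 and -0.01. The genes with a higher value were 36, 38 and 40 of 80 in these settings and 40 after normexp with quantile normalization. Of all genes 38.1%, 47.9% and 48.1% were higher in these settings and 48% after normexp with quantile normalization. Leaving out each array gave medians of -0.069 to 0.18 and 22 to 75 higher genes. For Tbx18VP16 against control the median was -0.21 after median centring, -0.059 (46 genes lower) after quantile normalization, -0.062 (47) in the authors' values, -0.019 (42) after normexp with quantile normalization, and 0.051 (35) with the 75th percentile over all spots. Against Tbx18 null it was -0.20, -0.056 (45 lower), -0.059 (44), -0.039 (45) and -0.013 (41) in the same order, and -0.26 with the GC trend removed. From quantile normalization on, the shares of all genes lower were 51.2%, 51.2%, 51.5% and 31.2% against control in this order. Against Tbx18 null they were 50.9%, 50.8%, 51.6% and 32.6%. Leaving out each array gave medians of -0.50 to -0.30 against control and -0.56 to -0.36 against Tbx18 null, with 75 to 77 genes lower in both. Median centring and the percentile over all spots left the difference from the median of all genes as it was, at -0.27 against control and -0.32 against Tbx18 null. The cause of the other shifts was not tested. Where 1 Tbx18VP16 array was left out, the lone array was assumed to vary like the other groups. The probes used for the 80 genes were well above background on every array. The part of background correction in these shifts was not tested.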
